A study of Mus musculus with 25 samples.

Results

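The open chromatin of 7 genes was followed across mouse CD8+ T cells: the Krüppel-like transcription factor genes Klf2, Klf3, Klf6 and Klf13, and the homing receptor genes S1pr1, Ccr7 and Gpr183. ATAC-seq inserts sequencing adapters with a transposase where DNA is accessible, and a peak is a stretch where many insertions pile up. A peak was assigned to a gene when its midpoint lay nearer to that gene's start than to the start of any other protein-coding gene, or inside the gene's body (GENCODE vM39 on GRCm39). The rule took 57 of the 13527 peaks in the count table. Klf3 had 15 of them, S1pr1 11, Klf13 9, Gpr183 7, Ccr7 6, Klf6 5 and Klf2 4. Each peak is named by its gene and by the distance of its midpoint from the gene start in kilobases, with a minus sign for upstream and a plus sign for downstream.

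The study asked how pregnancy alters T cells that recognise a fetal antigen (TFGS) in mice that had, or had not, already rejected a graft from the father's strain. All cells came from the spleen and lymph nodes of young adult C57BL/6 females, and were CD8+ T cells sorted with an OVA:Kb tetramer. Naive mice (3 libraries) had neither graft nor pregnancy, and Sensitized mice (4 libraries) had rejected 2W-OVA.BALB/c skin grafted about a month or more before. Pregnant mice had been mated with 2W-OVA.BALB/c males and were sampled within days of giving birth, either without a graft (N+P) or after one (S+P). Their cells were divided by the surface proteins PD1 and CD73. N+P C1 (3 libraries) and S+P C4 (4) were PD1-, N+P C5 (3) and S+P C5 (4) were PD1+CD73+, and S+P C7 (4) was PD1+CD73-. Naive and Sensitized cells were not divided in this way, so a comparison of a subset with them holds the gate as well as the pregnancy, and the contributions of these cannot be told apart. The tetramer shows only the cells against a single peptide of the transgene. These are bulk libraries, in which fewer cells with an open site and a less open site in each cell cannot be told apart.

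Naive and central memory T cells circulate through lymph nodes by means of these receptors. CCR7 follows the chemokines CCL19 and CCL21 into the T cell zone, S1PR1 follows sphingosine 1-phosphate out into lymph and blood, and GPR183 (EBI2) follows oxysterols to positions within the tissue. KLF2 is known to drive transcription of S1pr1 in resting T cells and to fall after activation, KLF3 is a repressor that binds similar CACCC elements, KLF6 is an early response factor and KLF13 is a factor linked to late chemokine expression in T cells.

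The sequences of 6 peaks that the results turn on are given first, as the 300 bases centred on each midpoint, read from the + strand of GRCm39. They are Ccr7 −8.15 kb (chr11:99053909-99054208), S1pr1 +39.08 kb (chr3:115469495-115469794), S1pr1 +35.74 kb (chr3:115472831-115473130), Gpr183 −34.44 kb (chr14:122236903-122237202), Gpr183 −22.59 kb (chr14:122225052-122225351) and Klf2 +25.08 kb (chr8:73097661-73097960). None of these windows overlapped an annotated exon. They are shown because the Ccr7 site had the largest fall of its locus in S+P C7 against Sensitized, the neighbouring S1pr1 sites moved in opposite directions, the Gpr183 sites separated the subsets in different ways, and the Klf2 site was the called peak of its gene. Capitals mark matches on either strand to short strings from the known binding motifs of 7 factor families, listed after the sequences.
Ccr7 −8.15 kb: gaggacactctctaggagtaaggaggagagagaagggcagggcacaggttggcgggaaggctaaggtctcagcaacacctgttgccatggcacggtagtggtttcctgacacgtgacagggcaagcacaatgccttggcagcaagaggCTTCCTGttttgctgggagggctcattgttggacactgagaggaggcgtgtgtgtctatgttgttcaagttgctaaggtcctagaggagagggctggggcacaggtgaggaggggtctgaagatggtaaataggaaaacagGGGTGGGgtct
S1pr1 +39.08 kb: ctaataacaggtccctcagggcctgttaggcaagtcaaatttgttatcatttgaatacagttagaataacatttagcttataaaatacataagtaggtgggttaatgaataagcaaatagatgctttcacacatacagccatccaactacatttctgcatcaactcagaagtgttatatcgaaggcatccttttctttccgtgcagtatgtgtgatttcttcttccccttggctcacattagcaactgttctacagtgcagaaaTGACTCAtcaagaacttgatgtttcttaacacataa
S1pr1 +35.74 kb: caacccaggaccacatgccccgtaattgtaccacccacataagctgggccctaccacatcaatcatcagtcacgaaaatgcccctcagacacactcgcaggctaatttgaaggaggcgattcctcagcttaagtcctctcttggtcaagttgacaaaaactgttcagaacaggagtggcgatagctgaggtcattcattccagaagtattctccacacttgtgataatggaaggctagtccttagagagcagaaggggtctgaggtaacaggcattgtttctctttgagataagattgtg
Gpr183 −34.44 kb: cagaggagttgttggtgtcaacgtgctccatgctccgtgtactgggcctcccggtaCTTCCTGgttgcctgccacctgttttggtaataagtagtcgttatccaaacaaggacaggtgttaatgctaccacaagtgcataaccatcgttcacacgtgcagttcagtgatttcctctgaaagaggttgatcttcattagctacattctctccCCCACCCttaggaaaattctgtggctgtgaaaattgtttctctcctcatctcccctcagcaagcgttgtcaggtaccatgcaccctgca
Gpr183 −22.59 kb: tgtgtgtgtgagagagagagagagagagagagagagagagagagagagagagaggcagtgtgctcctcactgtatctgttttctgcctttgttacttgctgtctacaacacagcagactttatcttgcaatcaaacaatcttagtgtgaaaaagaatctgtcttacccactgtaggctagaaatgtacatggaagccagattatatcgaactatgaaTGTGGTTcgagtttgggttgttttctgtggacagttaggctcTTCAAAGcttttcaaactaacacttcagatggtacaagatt
Klf2 +25.08 kb: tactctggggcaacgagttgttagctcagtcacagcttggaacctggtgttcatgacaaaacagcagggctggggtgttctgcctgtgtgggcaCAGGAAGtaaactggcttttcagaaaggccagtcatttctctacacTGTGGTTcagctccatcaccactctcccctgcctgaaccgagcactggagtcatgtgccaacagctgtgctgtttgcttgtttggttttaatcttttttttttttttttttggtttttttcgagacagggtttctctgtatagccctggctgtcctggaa

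The strings were searched on both strands of the same 300-base window of every peak. A KLF string (CACACCC or CCCACCC) stood in 16 of the 57 windows (28.1%), beside 24.0% of all 13527 windows. Outside promoters it stood in 15 of 52 windows (28.8%), beside 23.4% of all 5857, and the other strings are given for the same windows. The FOXO string TGTTTAC stood in 7 (13.5%), beside 5.16%. An ETS string (CAGGAAG or CCGGAAG) stood in 14 (26.9%), beside 30.7%, and the RUNX string TGTGGTT in 10 (19.2%), beside 20.1%. A TCF1/LEF1 string (CTTTGAA or CTTTGAT) stood in 7 (13.5%), beside 15.1%. An AP-1 string (TGAGTCA or TGACTCA) stood in 5 (9.62%), beside 12.6%, and the NFAT string TGGAAAA in 3 (5.77%), beside 7.29%. The Ccr7 −8.15 kb window held a KLF and an ETS string, S1pr1 +39.08 kb an AP-1 string and S1pr1 +35.74 kb none of them. The Gpr183 −34.44 kb window held a KLF and an ETS string, Gpr183 −22.59 kb a RUNX and a TCF1/LEF1 string, and Klf2 +25.08 kb an ETS and a RUNX string. These are matches of letters and do not show that a factor was bound. Median GC content was 48.7% in the 57 windows and 48.7% in all windows outside promoters.

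The 25 libraries held between 2430890 and 25419715 counts in peaks, with a median of 8197552, and the lowest raw count of any of the 57 peaks in any library was 31. In log2 normalized counts over all peaks, 15 of the 25 libraries correlated best with the mean of the other libraries of their own group. Sensitized 3 and Sensitized 4 did not, and resembled N+P C5 (r = 0.973 and 0.955) more than the other Sensitized libraries (0.918 and 0.937). Sensitized 1 was nearest to S+P C4 (0.931 against 0.868), Naive 3 to N+P C1 (0.988 against 0.970) and S+P C4 1, which was also the shallowest library, to N+P C5 (0.923 against 0.869). The counts and most calls at these genes that rest on Sensitized libraries are therefore also given without numbers 3 and 4. Promoter peaks for 5 of the 7 CD8 T cell markers were in the table, with summed normalized counts of 1303 to 1969 per library. No promoter peak of 6 B cell, 3 CD4 T cell or 6 myeloid markers was in the table. Of 3 NK cell markers 1 had one, Eomes, which CD8 T cells also use, at 286 to 417 in Naive and N+P libraries, 421 to 764 in Sensitized and S+P C4 and 798 to 1226 in the PD1+ S+P subsets. The part of this difference in the results below was not tested.

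Most of the 57 peaks lay away from gene starts: 34 were intergenic, 16 intronic, 2 exonic and 5 within 1000 bases of an annotated transcript start, whereas 7670 of all 13527 peaks were such promoter peaks. The midpoints of all 4 Klf2 peaks lay in introns of Eps15l1 and those of all 7 Gpr183 peaks within Ubac2, 1 of them also inside Gpr183, so position does not show which gene they act on. The 6 Klf3 peaks between −316.46 and −296.76 kb were nearer to an alternative transcript start of Tbc1d1 than to any Klf3 transcript. In the authors' lists of peaks found in each group, the Naive list held 40 of the 57 (and 62.6% of all peaks), the N+P C1 list 38 (62.9%), the N+P C5 list 36 (62.2%) and the Sensitized list 39 (71.1%). After pregnancy in sensitized mice, the S+P C4 list held 13 (27.0%), the S+P C5 list 35 (82.9%) and the S+P C7 list 21 (64.0%).

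**Figure D1:**
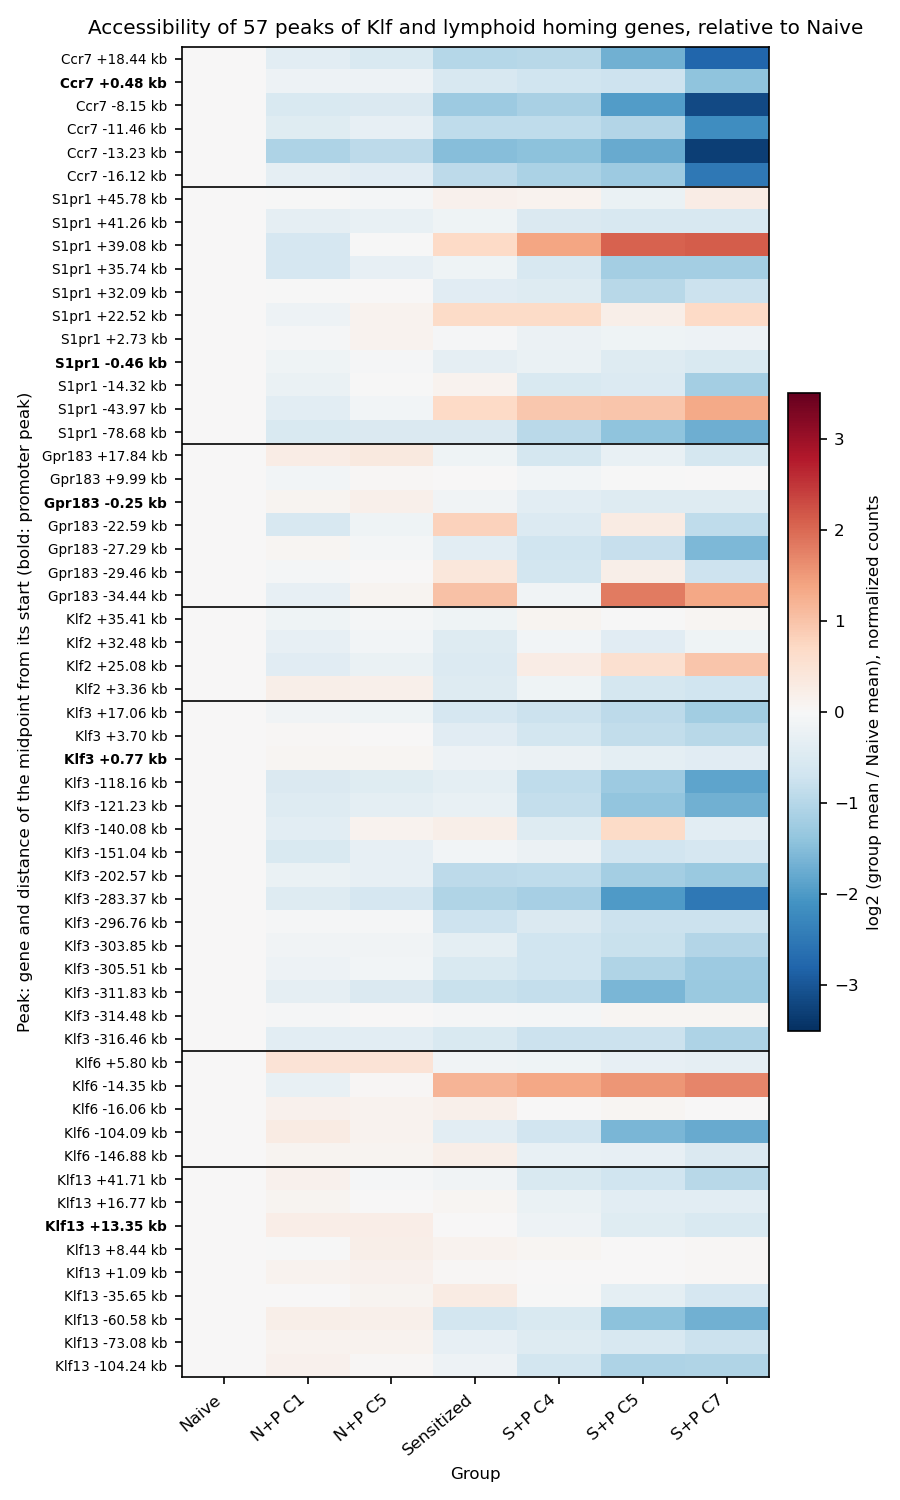
Each row is 1 of the 57 peaks, grouped by gene and named by distance from the gene start in kilobases (bold for promoter peaks), and each column 1 of the 7 groups. Colour is the log2 ratio of the group's mean normalized count to the Naive mean, from blue (lower) to red (higher). All Ccr7 rows are darkest blue in S+P C7, while S1pr1 +39.08 kb, Klf6 −14.35 kb and Gpr183 −34.44 kb are red there.

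In all, 27 of the 57 peaks passed the study's threshold in at least 1 of 13 comparisons, beside 23.1% of all peaks. All 27 were among the 52 outside promoters, where 46.4% of all peaks passed. DESeq2 was fitted to the whole table, and a peak counted as changed (called) at an adjusted p below 0.1 with a log2 fold change beyond 0.9 in either direction. They were 7 of the 15 Klf3 peaks, 6 of 11 at S1pr1, 5 of 6 at Ccr7, 4 of 7 at Gpr183, 2 of 5 at Klf6, 2 of 9 at Klf13 and 1 of 4 at Klf2. None of the peaks that span the start of 1 of these genes passed in any comparison. The called peak nearest to a gene start was Ccr7 −8.15 kb.

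Sensitization without pregnancy was read from Sensitized against Naive. There 8 of 57 peaks changed, 2 higher and 6 lower, beside 8.62% of all peaks. Among all peaks 7.22% were higher and 1.4% lower, and outside promoters 15.4% of these peaks changed beside 18.4% of all. Loess scaling, which adjusts each library for trends with peak height, gave 1 higher and 6 lower beside 5.25% and 2.65% of all. The 6 lower peaks were 4 at Ccr7 and 2 at Klf3, and the 2 higher were Gpr183 −34.44 kb and Klf6 −14.35 kb. Without Sensitized 3 and 4 the count was 18, with 6 higher and 12 lower, beside 15.2% of all peaks (9.44% higher, 5.73% lower). It was 4 without Naive 1 (1 higher, 3 lower), beside 7.45% of all, 4 without Sensitized 2 (1 higher, 3 lower), beside 6.69%, and 4 without Sensitized 1, beside 6.79%, where the balance was even at 2 higher and 2 lower.

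Pregnancy in unsensitized mice left no called peak at these genes. In N+P C1 against Naive 0 of 57 changed beside 0.00739% of all peaks, in N+P C5 against Naive 0 beside 0.00739%, and in N+P C5 against N+P C1 0 beside 0%. In the first 2 of these, DESeq2's filter on mean counts left 37 and 39 of the 57 peaks, and 8654 and 9703 of all peaks, without an adjusted p, so they could not be called. With that filter off 0 of 57 were called in either, beside 0.288% and 0.177% of all. At an unadjusted p under 0.05 there were 11 of 57 peaks beside 19% of all, 7 beside 17.5% and 2 beside 2.28%, and edgeR's quasi-likelihood test also called 0 in each. Without Naive 3, N+P C1 against Naive had 1 called peak, Ccr7 −13.23 kb, with a log2 fold change of −1.25, beside 1.18% of all.

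Pregnancy after sensitization was read from 3 subsets against the same Sensitized libraries, so these comparisons are not independent of each other. S+P C4 had 3 of 57 peaks lower and 0 higher, beside 0.858% of all peaks called (0.296% lower, 0.562% higher), and all 3 were at Gpr183. S+P C5 had 8 changed, 2 higher and 6 lower, beside 6.74% (3.08% higher, 3.67% lower). S+P C7 had 18 changed, 2 higher and 16 lower, beside 11.9% of all peaks (8.03% lower, 3.84% higher). With loess scaling the counts were 1 higher and 7 lower in S+P C5, beside 1.45% and 4.79% of all, and 2 higher and 19 lower in S+P C7, beside 1.71% and 8.83%. Outside promoters, 34.6% of these peaks changed in S+P C7 beside 24.6% of all. For S+P C4 and S+P C5 only the share of all peaks is given, which includes promoter peaks that were called less often. The median log2 fold change over the 57 peaks was −0.16 in the PD1- S+P C4, −0.31 in the PD1+CD73+ S+P C5 and −0.53 in the PD1+CD73- S+P C7, while the medians over all peaks were −0.017, −0.0063 and 0.0027. Leaving out Sensitized 3 and 4 gave counts of 3, 5 and 15, beside 2.31%, 3.25% and 6.96% of all peaks.

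The shares of all peaks in this paragraph include promoter peaks, which were called less often over the 13 comparisons. Of the 57 peaks 52 lay outside promoters, and the share of all such peaks was not computed here. Matched subsets with and without earlier sensitization gave 16 changed peaks in S+P C5 against N+P C5, 4 higher and 12 lower, beside 17.2% of all (10.3% higher, 6.97% lower). With loess scaling they were 3 higher and 12 lower, while the balance of all peaks turned, to 6.60% higher and 8.46% lower. The values of the groups did not overlap at 46 of 57 peaks, beside 62.9% of all. S+P C4 against N+P C1 gave 4, 3 higher and 1 lower, beside 12.6% (9.62% higher, 2.99% lower), and with loess scaling 3 higher and 4 lower beside 7.12% and 5.89%. With S+P C4 1 left out that count was 10, and the balance turned to 4 higher and 6 lower, beside 16.0% of all (9.96% higher, 6.09% lower). Among subsets of the S+P mice, 3 peaks changed in S+P C5 against S+P C4 (2 higher, 1 lower) beside 5.12% of all (3.12% higher, 2% lower), and with loess scaling 2 were higher and 2 lower, beside a balance of all peaks that turned to 249 higher and 460 lower of 13527. In S+P C7 against S+P C4 10 changed (1 higher, 9 lower) beside 7.73% (2.48% higher, 5.25% lower), or with loess scaling 1 higher and 10 lower beside 0.695% and 5.71%, and in S+P C7 against S+P C5 8 changed (0 higher, 8 lower) beside 2.38% (0.266% higher, 2.11% lower). The change of S+P C5 from Sensitized, less that of N+P C5 from Naive, was itself tested as an interaction. It holds the C5 gate as well as pregnancy, since Sensitized and Naive cells were not divided. In this interaction 4 peaks passed, 2 positive and 2 negative, beside 5.97% of all (3.04% positive, 2.93% negative). That even balance did not hold under other scalings, with 1 positive and 3 negative beside 1.49% and 5.02% of all under loess, and 2 and 1 beside 3.70% and 2.37% under total-count scaling. With Sensitized 3 and 4 left out 3 peaks passed, beside 2.36% of all.

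The Ccr7 gene lies at chr11:99035022-99045911 on the − strand, and its 6 peaks reached from 18.44 kb downstream to 16.12 kb upstream of the start. At −8.15 kb the normalized counts were 1258, 1068 and 720 in Naive, 664, 812 and 639 in N+P C1 and 714, 724 and 725 in N+P C5. They were 287, 298, 592 and 493 in Sensitized, 602, 567, 351 and 329 in S+P C4 cells, 311, 231, 296 and 204 in S+P C5 cells and 179, 104, 81.2 and 92.8 in S+P C7 cells. Every S+P C7 library lay below every library of the other 6 groups, and every Sensitized library below every Naive library. The means were 1015 ± 272 (SD, n = 3) in Naive, 418 ± 150 (n = 4) in Sensitized and 114 ± 44.4 (n = 4) in S+P C7. The peak fell in Sensitized against Naive (log2 fold change −1.28 ± 0.28 SE, adjusted p = 7.77e-05) and again in S+P C7 against Sensitized (log2 fold change −1.86 ± 0.27 SE, adjusted p = 1.8e-10). Without Sensitized 3 and 4 these log2 fold changes were −1.80 and −1.34, both still called. S+P C7 was also lower than the other S+P subsets, with means of 462 (S+P C4) and 261 (S+P C5, where the log2 fold change of S+P C7 was −1.18). S+P C5 against Sensitized did not reach the fold threshold (log2 fold change −0.68 ± 0.26 SE, adjusted p = 0.0419), while S+P C5 was lower than N+P C5 (log2 fold change −1.46 ± 0.28 SE, adjusted p = 1.64e-06).

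The other distal Ccr7 sites had the same order of groups at their ends. At −16.12 kb the counts were 1663, 1465 and 1198 in Naive, 472, 508, 1058 and 995 in Sensitized, 713, 632, 572 and 470 in S+P C5 cells and 339, 262, 240 and 170 in S+P C7 cells. At +18.44 kb, downstream of the gene, Naive had 532, 441 and 305, Sensitized 171, 167, 273 and 243, S+P C5 176, 144, 90.8 and 119 and S+P C7 68.9, 61.3, 64.6 and 52.8. In both, the Sensitized libraries lay below all Naive libraries and the S+P C7 libraries below all others. Sensitized against Naive gave −0.93 at −16.12 kb and −0.99 at +18.44 kb, or −1.56 and −1.33 without Sensitized 3 and 4. Both calls were lost without Naive 1, Sensitized 1 or Sensitized 2, at −0.81, −0.76 and −0.78 for −16.12 kb and −0.80, −0.90 and −0.89 for +18.44 kb. The log2 fold change of S+P C7 against Sensitized was −1.59 at −16.12 kb, −1.79 at +18.44 kb, −1.77 at −13.23 kb and −1.29 at −11.46 kb. Without Sensitized 3 and 4 the first 3 remained called at −0.96, −1.46 and −1.16, while −11.46 kb gave −0.76 and was not. Sensitized libraries 3 and 4 were the higher pair of their group at each of these 4 sites, for example 1058 and 995 against 472 and 508 at −16.12 kb. S+P C4 1 and 2 were likewise above S+P C4 3 and 4, at 980 and 859 against 417 and 432. The peak over the Ccr7 start (+0.48 kb) had counts of 1112, 1010 and 824 in Naive, 637, 561, 798 and 673 in Sensitized and 372, 424, 350 and 328 in S+P C7 cells. Its S+P C7 libraries were also the lowest of all 25, but the log2 fold change against Sensitized, −0.86, did not reach the fold threshold.

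**Figure D2:**
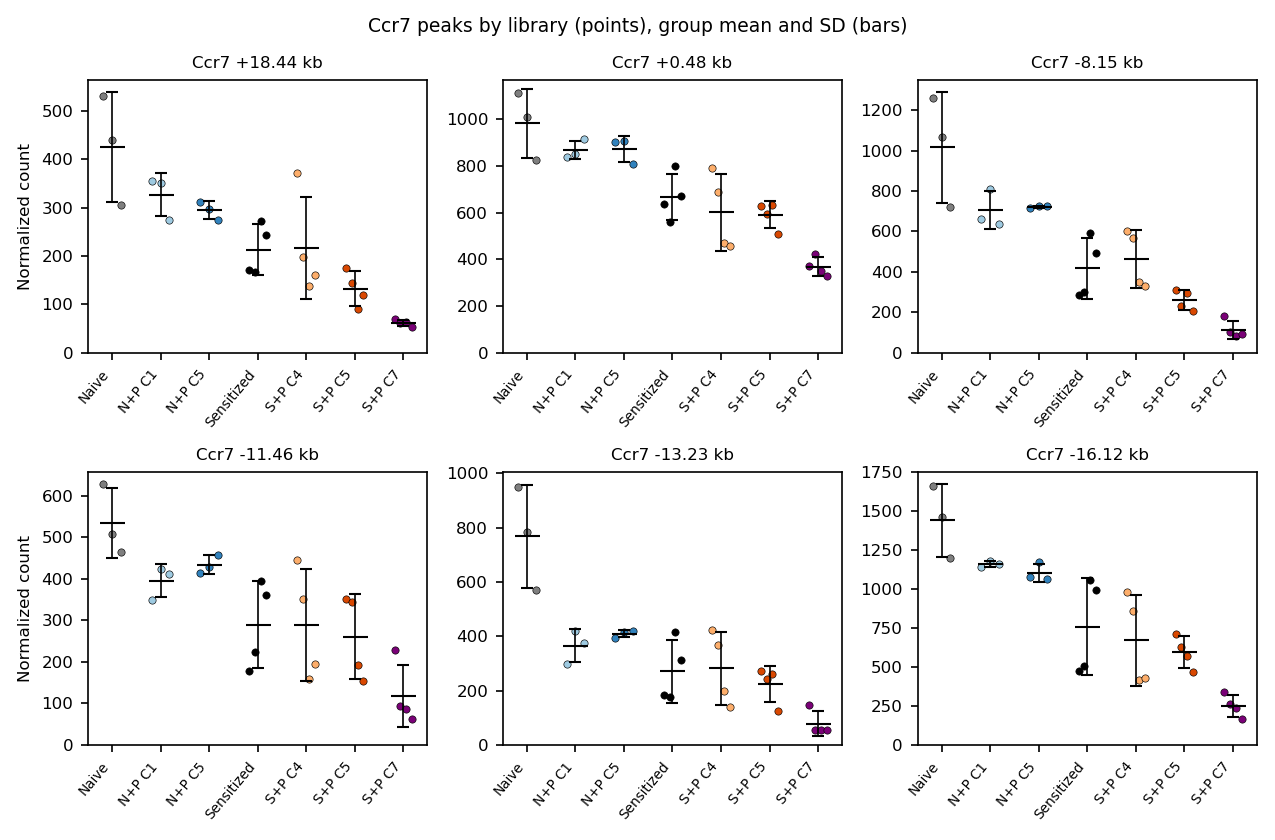
Normalized counts of the 6 Ccr7 peaks on a linear axis from 0, with 1 point per library, a bar for each group's mean and SD, and the 7 groups along the horizontal axis. S+P C7 lies lowest in every panel, at a mean of 114 at −8.15 kb against 1015 in Naive. The Naive, Sensitized and S+P C4 libraries are spread more widely than the N+P libraries.

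The S1pr1 gene lies at chr3:115504071-115508721 on the − strand. Its 11 peaks spread from 45.78 kb downstream to 78.68 kb upstream of the start, and they did not move together. At +39.08 kb the counts were 112, 135 and 89.6 in Naive, 77.4, 83 and 64.1 in N+P C1 and 121, 121 and 92.6 in N+P C5. They were 249, 202, 126 and 150 in Sensitized, 191, 312, 332 and 324 in S+P C4 cells, 424, 598, 400 and 455 in S+P C5 cells and 492, 572, 456 and 422 in S+P C7 cells. All S+P C5 and S+P C7 libraries lay above all others, and S+P C4 1 stood below its own group. The peak rose in S+P C5 against Sensitized (log2 fold change 1.37 ± 0.21 SE, adjusted p = 3.87e-09) and in S+P C7 against Sensitized (log2 fold change 1.42 ± 0.21 SE, adjusted p = 3.46e-10), or by 1.05 and 1.10 without Sensitized 3 and 4. It was higher in S+P C5 than in N+P C5 (log2 fold change 2.07 ± 0.23 SE, adjusted p = 8.32e-17) and in S+P C4 than in N+P C1 (log2 fold change 1.96 ± 0.25 SE, adjusted p = 1.75e-13). The interaction, which holds the C5 gate as well as pregnancy, also passed (log2 fold change 1.37 ± 0.33 SE, adjusted p = 0.00261).

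The next peak toward the gene, +35.74 kb, which was chosen for description after its values were seen, went the other way. Its counts were 397, 366 and 298 in Naive, 322, 354, 295 and 294 in Sensitized, 299, 252, 224 and 188 in S+P C4 cells, 194, 133, 169 and 126 in S+P C5 cells and 151, 153, 186 and 130 in S+P C7 cells. Both PD1+ subsets lay below all Sensitized libraries, with log2 fold changes of −1.01 in S+P C5 cells and −1.04 in S+P C7 cells, or −1.10 and −1.13 without Sensitized 3 and 4. Upstream, the −14.32 kb peak fell in S+P C7 against Sensitized (log2 fold change −1.30 ± 0.16 SE, adjusted p = 2.8e-13), or −1.32 without Sensitized 3 and 4, from 506, 596, 518 and 555 to 213, 169, 257 and 241, and S+P C5 lay between at 332, 334, 430 and 349. The −78.68 kb peak fell in both PD1+ subsets (−0.92 in S+P C5, −1.23 in S+P C7, where it was −1.13 without Sensitized 3 and 4), although in S+P C5 the value without Sensitized 3 and 4 was −0.82 and under the fold threshold. The −43.97 kb peak was higher in S+P C5 than in N+P C5 (log2 fold change 1.05 ± 0.22 SE, adjusted p = 1.13e-05) and in S+P C4 than in N+P C1 (1.33). The +32.09 kb peak fell in S+P C5 against N+P C5 (log2 fold change −0.99 ± 0.11 SE, adjusted p = 1.25e-16), with counts of 664, 686, 660 and 612 against 1205, 1316 and 1395, although with loess scaling it was −0.89 and under the fold threshold. Over the start itself (−0.46 kb) the counts ran from 524 to 1062 over all libraries, and the log2 fold change stood at −0.21 in S+P C7 against Sensitized and −0.40 in S+P C5 against N+P C5. Summed over its 11 peaks, S1pr1 had 7158 ± 448 normalized counts in Naive, 6808 ± 461 in Sensitized and 6083 ± 203 in S+P C7 cells. The lowest mean of any group, 5718 ± 346, was that of S+P C5. Unsensitized N+P C1 cells, at 6103 ± 558, were close to S+P C7. N+P C5 stood at 6635 ± 375, while S+P C4 had 6319 ± 290. The called sites were selected by the fold threshold and moved in both directions, so a smaller relative difference of the sum can follow from that choice.

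The Gpr183 gene lies at chr14:122189592-122202610 on the − strand within Ubac2. At −34.44 kb the counts were 163, 204 and 223 in Naive, 142, 175 and 170 in N+P C1 and 229, 204 and 191 in N+P C5. They were 442, 551, 260 and 333 in Sensitized, 221, 154, 214 and 128 in S+P C4 cells, 682, 805, 746 and 528 in S+P C5 cells and 570, 655, 482 and 284 in S+P C7 cells. The PD1- cells of sensitized and pregnant mice thus lay in the range of the unsensitized groups or just under it, whereas the Sensitized and both PD1+ groups' libraries lay above the Naive range. The peak rose in Sensitized against Naive (log2 fold change 1.01 ± 0.26 SE, adjusted p = 0.0016) and fell in S+P C4 against Sensitized (log2 fold change −1.17 ± 0.25 SE, adjusted p = 0.00072). Within the S+P mice it was higher in S+P C5 (log2 fold change 1.96 ± 0.25 SE, adjusted p = 1.43e-12) and in S+P C7 (log2 fold change 1.49 ± 0.25 SE, adjusted p = 2.85e-07) than in S+P C4. Leaving out Sensitized 3 and 4 made the first pair 1.33 and −1.49. The rise in Sensitized against Naive was not called without Naive 1 (0.89) or without Sensitized 2 (0.81).

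Sites nearer to the gene behaved otherwise. At −22.59 kb the Sensitized counts were 607, 827, 366 and 467, those of S+P C4 282, 267, 209 and 157, those of S+P C5 352, 421, 510 and 299 and those of S+P C7 158, 199, 209 and 130, with Naive at 349, 264 and 352. Here S+P C4 and S+P C7 both lay below every Sensitized and every S+P C5 library. S+P C7 was lower than Sensitized (log2 fold change −1.72 ± 0.24 SE, adjusted p = 3.2e-11) and than S+P C5 (log2 fold change −1.19 ± 0.24 SE, adjusted p = 9.09e-05). With Sensitized 3 and 4 left out the former was −2.06. The −29.46 kb peak had the same pattern, with log2 fold changes of −1.05 in PD1- S+P C4 and −1.11 in PD1+CD73- S+P C7 against Sensitized (−1.14 and −1.20 without Sensitized 3 and 4) and −0.92 in S+P C7 against S+P C5. At −27.29 kb S+P C7 had 213, 174, 166 and 90.9 and Sensitized 241, 325, 428 and 464, a log2 fold change of −1.19 that dropped to −0.82 and lost its call without Sensitized 3 and 4. The start peak at −0.25 kb had 388, 470, 545 and 537 in Sensitized and 373, 381, 461 and 354 in S+P C7 cells, which overlapped.

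**Figure D3:**
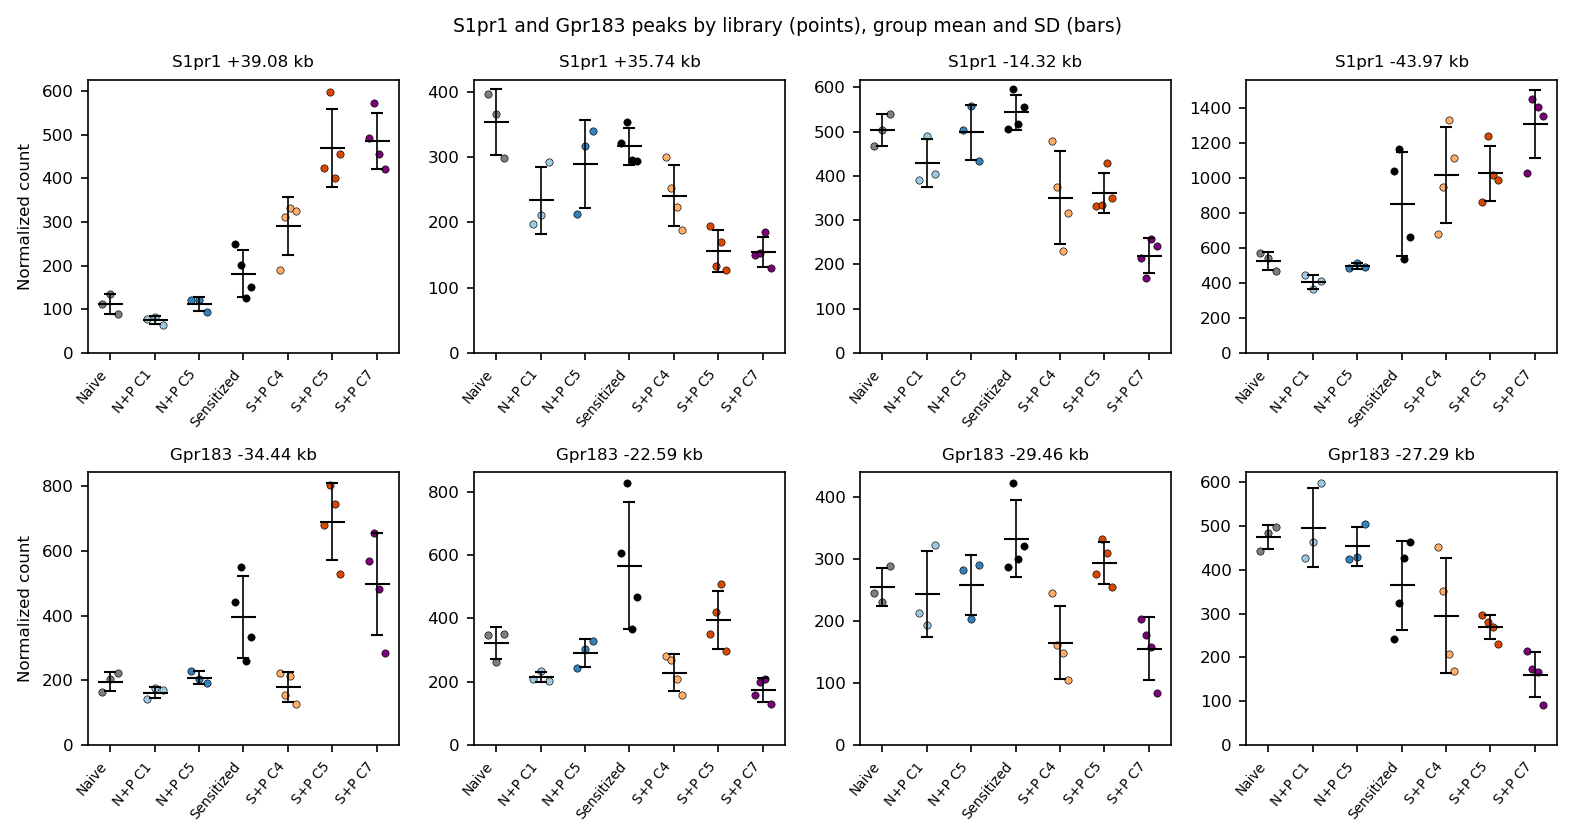
Normalized counts of 4 S1pr1 and 4 Gpr183 peaks by group on a linear axis from 0, with 1 point per library and a bar for each group's mean and SD. S1pr1 +39.08 kb climbs from a mean of 112 in Naive to 485 in S+P C7 cells, and Gpr183 −34.44 kb is high in S+P C5 (mean 690) and low in S+P C4 (mean 179).

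The Klf2 gene lies at chr8:73072726-73075502 on the + strand. A single peak of 7655 bases covered the whole gene (midpoint +3.36 kb), with counts of 3809, 3582 and 4528 in Naive, 2259, 2086, 3810 and 3566 in Sensitized, 2434, 2112, 2537 and 3205 in S+P C5 cells and 2594, 1954, 1958 and 3213 in S+P C7 cells. Sensitized 1 and 2 lay apart from Sensitized 3 and 4, and no comparison of this peak was called, although S+P C5 against N+P C5 gave log2 fold change −0.81 ± 0.21 SE, adjusted p = 0.000365. The 1 called peak, +25.08 kb in an intron of Eps15l1, went the other way. Its counts were 150, 154 and 143 in Naive, 126, 81.6, 117 and 102 in Sensitized, 105, 149, 211 and 247 in S+P C4 cells, 260, 254, 138 and 236 in S+P C5 cells and 253, 383, 196 and 345 in S+P C7 cells. All libraries of both PD1+ subsets lay above all Sensitized libraries (log2 fold change 1.06 ± 0.25 SE, adjusted p = 0.000407 in S+P C5, log2 fold change 1.46 ± 0.25 SE, adjusted p = 7.85e-08 in S+P C7). N+P C5, at 110, 134 and 137, was not above Naive, and the interaction passed (log2 fold change 1.29 ± 0.38 SE, adjusted p = 0.013). All 3 were still called without Sensitized 3 and 4, at 1.10 in S+P C5 and 1.33 in the interaction, while loess scaling ended these last calls (0.74 and 0.88).

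Klf3 lies at chr5:64959875-64990261 on the + strand. Its start peak (+0.77 kb) had counts of 1210, 1031 and 1050 in Naive, 1028, 994, 939 and 916 in Sensitized and 797, 877, 787 and 899 in S+P C7 cells, with no call in any comparison. Of the distal peaks, −118.16 kb had 609, 744, 612 and 651 in Sensitized, 357, 329, 457 and 222 in S+P C5 cells and 214, 197, 343 and 154 in S+P C7 cells. At −121.23 kb Sensitized had 242, 268, 250 and 244, S+P C5 127, 62.8, 155 and 122 and S+P C7 117, 71.5, 96.1 and 90.9. Neither subset overlapped Sensitized at either site, and the Sensitized libraries 3 and 4 did not differ here from 1 and 2 in the way seen at Ccr7. Against Sensitized the log2 fold changes were −0.94 and −1.08 in S+P C5 cells and −1.54 and −1.40 in S+P C7 cells, and all were called without Sensitized 3 and 4 as well. The call of −118.16 kb in S+P C5 was lost without Sensitized 2 (−0.87) and without S+P C5 4 (−0.78). The −140.08 kb peak separated S+P C5 from the rest: its counts were 310, 312, 290 and 252 in Sensitized, 194, 210, 181 and 144 in S+P C4 cells, 360, 491, 345 and 402 in S+P C5 cells and 185, 237, 215 and 143 in S+P C7 cells. All S+P C5 libraries lay above all other libraries, and S+P C5 was higher than S+P C4 (log2 fold change 1.14 ± 0.17 SE, adjusted p = 4.25e-09) while S+P C7 was lower than S+P C5 (log2 fold change −1.05 ± 0.17 SE, adjusted p = 4.21e-07). The remaining called peaks, −202.57, −283.37, −305.51 and −311.83 kb, were lower wherever they were called, with log2 fold changes from −1.48 (−283.37 kb, S+P C7 against Sensitized) to −0.90 (−202.57 kb, S+P C5 against N+P C5). At −283.37 kb, leaving out Sensitized 3 and 4 made the change in S+P C7 against Sensitized −1.04 and that in S+P C5, −0.93, only −0.48, which was not called. In Sensitized against Naive, −283.37 and −202.57 kb gave −1.04 and −0.91, or −1.49 and −1.24 without Sensitized 3 and 4. They were not called without Sensitized 1 (−0.87 and −0.84), nor was −202.57 kb without Naive 1 (−0.71).

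Klf6 lies at chr13:5911481-5920393 on the + strand and was covered by a peak of 13862 bases, which was not called in any comparison. The 2 called peaks upstream moved in opposite directions. At −14.35 kb the counts were 90.9, 95.4 and 80.1 in Naive, 85.2, 70.7 and 67.8 in N+P C1, 89.5, 83.6 and 98.6 in N+P C5, 230, 310, 108 and 159 in Sensitized, 197, 232, 298 and 182 in S+P C4 cells, 206, 297, 275 and 263 in S+P C5 cells and 286, 257, 331 and 285 in S+P C7 cells. All libraries from sensitized mice lay above all 9 from unsensitized mice. The log2 fold change was 1.18 in Sensitized against Naive, 1.61 in S+P C4 against N+P C1 and 1.52 in S+P C5 against N+P C5. The first was 1.60 without Sensitized 3 and 4, and loess scaling ended the first and the last call (0.83 and 0.79). No comparison of a pregnant with a Sensitized group called this peak. At −104.09 kb the counts were 401, 345 and 456 in Naive, 428, 407 and 485 in N+P C5, 162, 231, 435 and 412 in Sensitized, 193, 76.5, 142 and 115 in S+P C5 cells and 138, 117, 86.2 and 133 in S+P C7 cells. S+P C5 was lower than N+P C5 (log2 fold change −1.72 ± 0.32 SE, adjusted p = 7.81e-07), with no overlap. Against Sensitized the log2 fold changes were −1.22 in S+P C5 cells and −1.38 in S+P C7 cells, but these rested on Sensitized 3 and 4: without them the values were −0.55 and −0.72 and neither was called.

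Klf13 lies at chr7:63536099-63588663 on the − strand. The 4833-base peak over its start had counts of 3594 to 4542 over all libraries and was not called in any comparison. The −60.58 kb peak had 769, 798 and 879 in N+P C5, 271, 307, 635 and 628 in Sensitized, 926, 465, 242 and 356 in S+P C4 cells, 385, 211, 216 and 246 in S+P C5 cells and 292, 243, 182 and 178 in S+P C7 cells. It was lower in S+P C5 than in N+P C5 (log2 fold change −1.62 ± 0.34 SE, adjusted p = 1.09e-05) with no overlap. Its call in S+P C7 against Sensitized (−1.04) was lost without Sensitized 3 (−0.84), without Sensitized 4 (−0.85) and without both (−0.36), and that against S+P C4 (−1.14) without S+P C4 1. At −104.24 kb S+P C5 had 352, 181, 298 and 271 and N+P C5 569, 567 and 659 (log2 fold change −1.11 ± 0.22 SE, adjusted p = 3.24e-06). The interaction, which holds the C5 gate as well as pregnancy, was −0.94, or −0.66 and not called without Sensitized 3 and 4. That last call was lost in 7 of the 22 alternatives run, which gave −1.08 to −0.66. The count filters among these alternatives left the fit unchanged and could not end it.

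**Figure D4:**
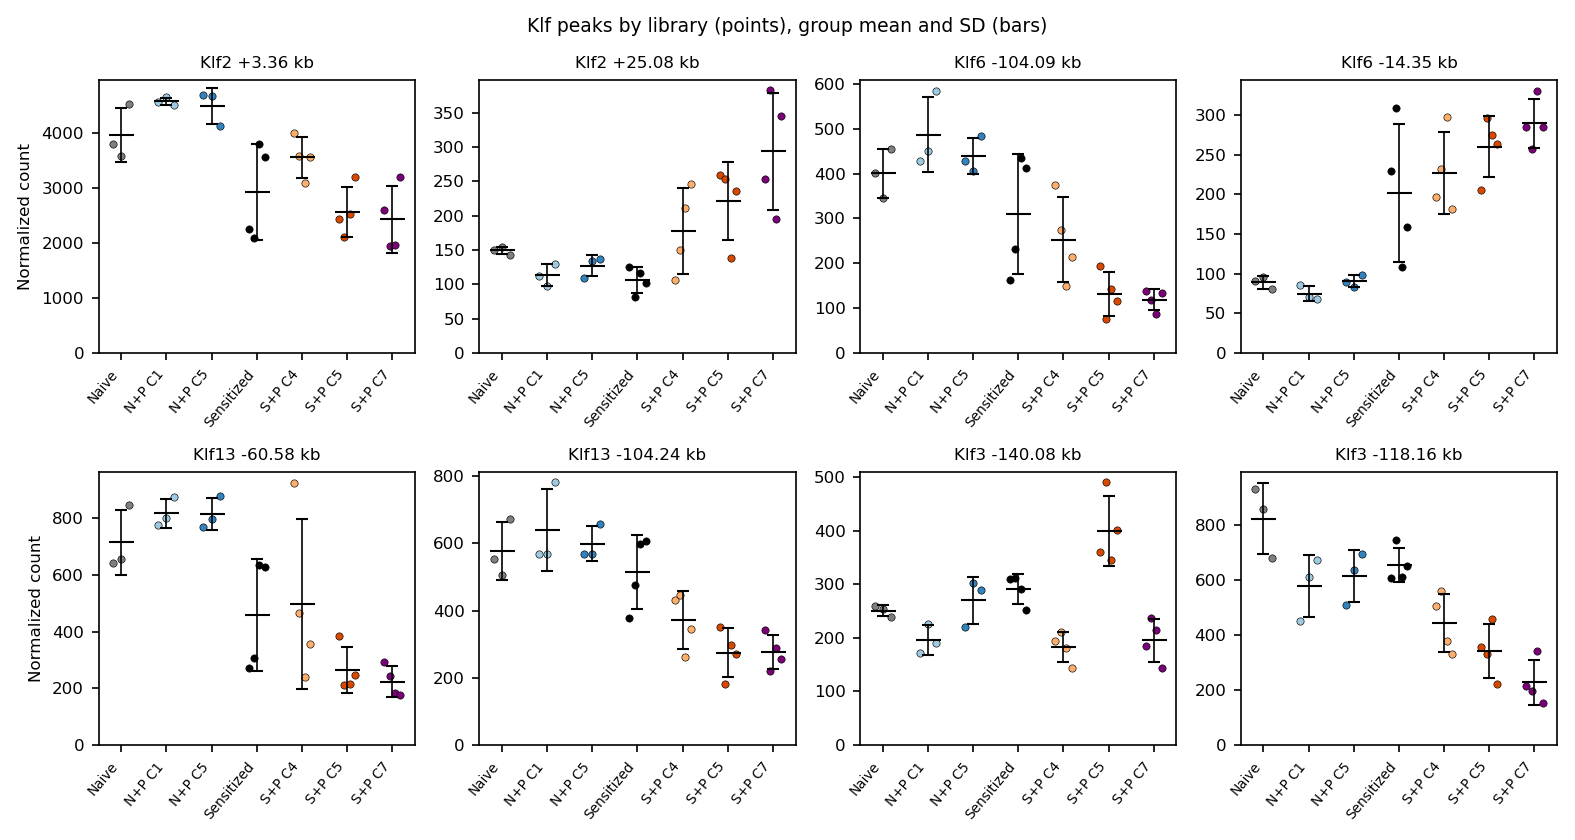
Normalized counts of 8 Klf peaks by group on a linear axis from 0, with 1 point per library and a bar for each group's mean and SD. Klf6 −14.35 kb is at or under 98.6 in all unsensitized libraries and at or over 108 in all sensitized ones, and Klf3 −140.08 kb is highest in S+P C5 (mean 399).

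**Figure D5:**
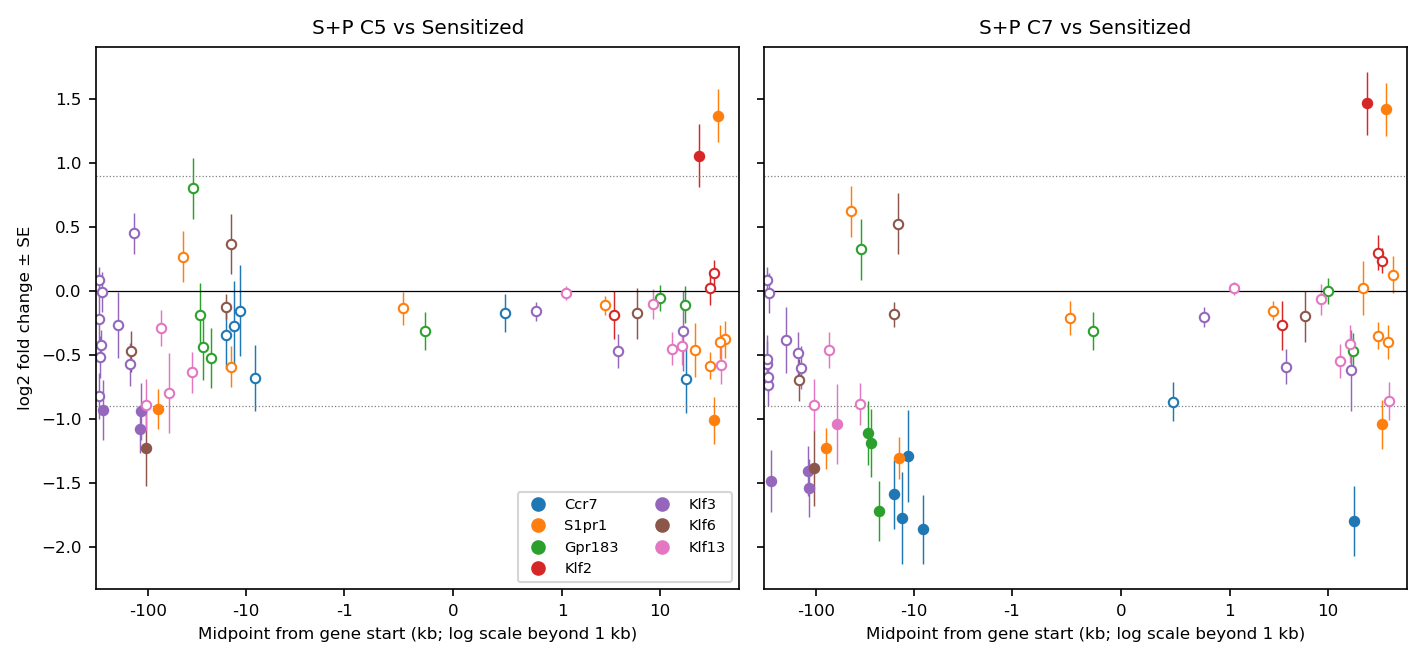
Log2 fold change of the 57 peaks against distance from the gene start in kilobases, for S+P C5 (left) and S+P C7 (right) against Sensitized, coloured by gene, with filled points for called peaks, bars of ± SE and dotted lines at the fold threshold of 0.9. The horizontal axis is logarithmic beyond 1 kb on either side. In S+P C7 16 called points lie below 0 and 2 above, and the 2 above are S1pr1 +39.08 kb and Klf2 +25.08 kb.

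Other genes of the pathway were counted by the same assignment rule, in lists chosen with earlier results of these data known. For the 13 other KLF genes 14 peaks were measured, and in S+P C7 against Sensitized, where 11.9% of all peaks were called (3.84% higher, 8.03% lower) and 24.6% outside promoters, 0 were higher and 3 lower. These were peaks near Klf7 (log2 fold changes of −1.09 and −2.51) and Klf5 (−2.68). Among 42 peaks of 12 other homing and egress receptors 2 were higher and 4 lower. The lower ones included Ccr9 (−1.04), a gut homing chemokine receptor, and Cxcr4 at −10.409 kb (−2.02), while S1pr4 (1.24) and Cxcr4 at −240.229 kb (1.49) were higher. Among 56 peaks of 9 upstream regulators 1 was higher and 8 lower, and 5 of the lower ones lay in introns of Foxp1, a factor that keeps T cells quiescent, with log2 fold changes from −2.35 to −0.96. For receptor signalling genes 1 of 23 peaks was higher and 1 lower, and for enzymes and transporters of the ligands 0 of 3. In S+P C5 against Sensitized the counts of higher and lower peaks were 0 and 3, 3 and 2, 1 and 0, 1 and 2, and 0 and 0 in the same 5 lists, taking the ligand enzymes last, beside 6.74% of all called. Without Sensitized 3 and 4 they were 0 and 0, 2 and 0, 1 and 1, 1 and 1, and 0 and 0 beside 3.25%, and in S+P C7 they were 0 and 3, 1 and 3, 1 and 7, 1 and 0, and 0 and 0 beside 6.96%.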

How the data were processed

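ATAC-seq was made from 25 libraries of sorted cells in 7 groups, taken from the sample labels. The authors trimmed reads with cutadapt 3.4, aligned them to GRCm39 with Bowtie2 2.2.9, filtered them with Picard 2.21.8, called peaks per library with Genrich 0.6.1, combined replicates within a group and merged the groups with bedtools 2.27.1 (versions from the submitters' processing notes). The deposited table holds raw counts of 13527 merged peaks, counted with deepTools. Wide or joined peaks can hide a change in a narrower site. The deposited group lists hold the authors' score and q-value for each interval, and only membership of a list was used here. A peak was in a list when it overlapped an interval of it.

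DESeq2 1.42.0 (R 4.3.3) was fitted to all peaks and all 25 libraries with group as the only term, with median-of-ratios size factors and Wald tests, which set every printed adjusted p (Benjamini-Hochberg over the peaks that passed DESeq2's filter on mean counts, which were 4873 in N+P C1 and 3824 in N+P C5 against Naive and all 13527 elsewhere). Calls followed the study's thresholds, a log2 fold change (not shrunken) beyond 0.9 in either direction with an adjusted p below 0.1. Fold changes are given ± standard error and normalized counts as mean ± SD. The script was tested on simulated data. Values were given for the peak nearest to a gene start (within 1000 bases) and for up to 3 called peaks per gene with the smallest p. Other peaks that are given with values were chosen after their values were seen. The values of a further gene are not reported here. The genes, the lists and the motif strings were chosen with earlier results of these data known. The alternatives were edgeR 4.0.16, total-count and loess scaling (limma 3.58.1), other filters and thresholds, other library sets, and each library left out. The filter on low counts kept all 13527 peaks, so it could not change a call. Turning DESeq2's filter off could change calls only in N+P C1 and N+P C5 against Naive. By transcript starts the Klf3 peaks farthest upstream would go to Tbc1d1, and no counts under that rule are given. The fit of the S+P and the N+P libraries without a block was added after the data were seen.

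Subsets whose library names share a number were taken to come from the same mouse, which the labels do not state. Deviations from the group means correlated at 0.064 to 0.771 between libraries of the same number and at −0.685 to 0.440 between others, and 14 of 15 same-number pairs were above 0.1. A fit with this number as a block was therefore run as an alternative. Suspensions were made from individual mice according to the study's methods, but the labels name no animals and no batch of sorting, so p-values measure the spread between these libraries. Counts of fragments without molecular identifiers carry counting error and amplification noise.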

Additional observations from a re-analysis of the deposited data

Results flagged for a closer look

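In 84 groups of 4 libraries checked for a library far from the other 3, chance would give about 1 in 20, and 3 were found. At Klf3 +0.77 kb the S+P C5 2 library had 739 normalized counts against 897 to 913 in the other 3, a gap of 0.912 of the group's range. At S1pr1 −0.46 kb S+P C7 3 had 524 against 668 to 695, a gap of 0.843. At S1pr1 +39.08 kb S+P C4 1, the shallowest library, had 191 against 312 to 332, a gap of 0.853. The cause of these was not tested.

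The change of S+P C5 from Sensitized, less that of N+P C5 from Naive, passed at 4 peaks by the DESeq2 interaction. This difference holds the C5 gate as well as pregnancy. The log2 difference was 1.37 at S1pr1 +39.08 kb, 1.29 at Klf2 +25.08 kb, −1.35 at Klf6 −104.09 kb and −0.94 at Klf13 −104.24 kb. Without Sensitized 3 and 4 the values were 1.05 and 1.33 for the first 2, which were still called, and −0.68 and −0.66 for the others, which were not.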

How the results depend on the processing

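The count of called peaks among the 57 stayed within 1.5 times the reported count in 7 of 13 comparisons. This covers all alternatives of fit, scaling, filter, threshold and library set, with the assignment of peaks to genes unchanged. In Sensitized against Naive it was 18 without Sensitized 3 and 4, beside 15.2% of all, and 4 to 10 with single libraries left out (4 without Naive 1, without Sensitized 1 or without Sensitized 2, beside 7.45%, 6.79% and 6.69% of all, and 10 without Sensitized 3, beside 10.9%). With only the libraries compared in the fit, N+P C1 and N+P C5 against Naive each had 1 called peak, beside 0.614% and 0.481% of all peaks, and with single libraries left out the former had 0 to 1 (1 without Naive 3, beside 1.18%). S+P C5 against Sensitized had 5 without Sensitized 3 and 4, beside 3.25%. S+P C4 against N+P C1 had 7 (3 higher, 4 lower) with loess scaling, beside 13.0% of all, and 3 to 10 with single libraries left out (10 without S+P C4 1 beside 16.0% of all, 8 without S+P C4 2 beside 13.2%), and S+P C5 against S+P C4 had 2 to 6 (2 without S+P C5 2 beside 3.60% of all, 5 without S+P C5 1 beside 6.14%, 5 without S+P C4 3 beside 6.16%, 6 without S+P C4 4 beside 5.20%). S+P C5 against N+P C5 was 4 higher and 9 lower by total-count scaling, beside 10.8% and 6.40% of all, and 3 higher and 12 lower by loess scaling, beside 6.60% and 8.46%. With the library number as a block the counts were 0 in N+P C5 against N+P C1, 4 in S+P C5 against S+P C4, 10 in S+P C7 against S+P C4 and 8 in S+P C7 against S+P C5, beside 0.0148%, 5.46%, 7.91% and 3.33% of all peaks. In the same libraries without the block they were 0, 4, 10 and 7, beside 0.0665%, 4.99%, 7.76% and 2.37%, and the block ended no call of a named peak. Of 56 calls of named peaks none reversed and 35 held under all alternatives run. Loess scaling ended 5, total-count scaling 2, edgeR 1 and leaving out Sensitized 3 and 4 ended 6. The cause was not tested. S+P C4 1 was the shallowest library and was also more like N+P C5 than its own group. A peak without a call may still differ by less than the fold threshold.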

Other observations

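For the peak of each gene with the smallest p, the peaks outside the 57 that varied most alike were found by Pearson's r over the 25 libraries, on log2(normalized count + 1). Libraries of a group share their treatment, so these values describe a shared pattern of groups and carry no test. The pattern was common for some: of 13470 peaks compared, r was over 0.9 at 790 for Klf6 −14.35 kb, 650 for S1pr1 +39.08 kb, 564 for Klf13 +41.71 kb and 547 for Ccr7 −8.15 kb, but at 43 for Klf3 −121.23 kb, 39 for Gpr183 −34.44 kb and 2 for Klf2 +25.08 kb. Ccr7 −8.15 kb was most like peaks nearest to Znrf3 (r = 0.985) and Eipr1 (0.983). S1pr1 +39.08 kb was most like peaks nearest to Adgrl2 (0.987) and Ifnar1 (0.979), and Gpr183 −34.44 kb most like 1 nearest to Ubl3 (0.965). Klf6 −14.35 kb was most like peaks nearest to Bhlhe40 (0.979) and Gzma (0.973). Klf3 −121.23 kb was most like a peak nearest to Slc12a7 (0.946), Klf13 +41.71 kb, which was not called in any comparison, like 1 nearest to Cdk20 (0.964), and Klf2 +25.08 kb like peaks nearest to Arf3 (0.917) and Bptf (0.905).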
